A study of Mus musculus with 6 samples.

Results

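The genes described here encode the isoenzymes of glycolysis and glycogen metabolism in mouse heart, with the carriers that bring glucose in and move lactate across the cell membrane. They were chosen as a list of 37 gene symbols, and all 37 were found among the 23404 genes of the deposited table. The study, on isolating ventricular cardiomyocytes by autofluorescence, sequenced mRNA of C57BL/6J cardiomyocytes in a FITChigh/FSCdim sub-population (bright in the FITC channel, low in forward scatter), called FITChigh here, and a FITCdim/FSChigh sub-population (dim in the FITC channel, high in forward scatter), called FITCdim. There were 3 libraries of each, which the series text calls biological replicates. No genotype or treatment other than the sort separated the groups, and the sources used here do not give the age of the mice or say whether animals were pooled.

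Glycolysis splits glucose into pyruvate, and glycogen stores glucose inside the cell. Many of its steps are carried out by a family of isoenzymes, of which a form typical of heart or skeletal muscle stands beside forms found in most tissues or in liver and brain. The adult heart burns mainly fatty acids, but it takes up glucose and lactate, keeps a glycogen store and uses glycolysis more when oxygen is short or work is high.

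Levels are the deposited values, called adjusted read counts, which are read counts adjusted toward a common library size and not divided by gene length. They still summed to more in FITChigh, at 2333473 to 2443707 per library, against 2030583 to 2112872 per FITCdim library. Recovered reads numbered 1589825 to 2931045 per FITChigh library and 1705626 to 3345996 per FITCdim library. The 10 cardiomyocyte markers summed to 335043 to 356111 adjusted read counts in FITChigh, against 206779 to 261425 in FITCdim. Markers of several other cell types stood the other way. The 10 endothelial markers summed to 559.4 to 745.7 in FITChigh against 4148 to 4456 in FITCdim, the 8 fibroblast markers to 53.5 to 77.7 in FITChigh against 405.8 to 796.8 in FITCdim, and the leukocyte markers, 7 of 8 found, to 86.3 to 123.5 in FITChigh against 360.3 to 839.2 in FITCdim. The 7 mural markers summed to 379.9 to 485.1 in FITChigh against 977.7 to 1340 in FITCdim, and the 5 atrial markers to 197.0 to 434.2 in FITChigh against 1087 to 2338 in FITCdim. Each of these 6 sums differed without overlap (exact two-sided permutation test, p = 0.1, the smallest that 3 against 3 libraries allow). The few blood markers were lower too, at 0.668 to 3.86 in FITChigh against 7.35 to 34.3 in FITCdim. Those of nerve and glia overlapped, at 7.88 to 10.5 in FITChigh against 3.73 to 15.4 in FITCdim. Those of skeletal muscle also overlapped, at 7781 to 10710 in FITChigh against 6220 to 7841 in FITCdim. That sum was mostly Ckm, with means of 8363 in FITChigh and 6070 in FITCdim, and Acta1, with 1188 and 981.1. The skeletal myosins Myh1, Myh2 and Myh4 had no read in FITChigh and at most 2 reads each in FITCdim. Adipocyte markers reached at most 1.69 in FITChigh and were at 0 in FITCdim. In such bulk libraries, fewer cells of a type and less RNA per cell cannot be told apart. Of the fibroblast and leukocyte markers, Tcf21 (fibroblast) and Fcgr1 (leukocyte) had no read in FITChigh.

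At each isoenzyme step, 1 form was counted as the heart or muscle form and the rest as other forms. The muscle subunit Ldha and Pfkfb1, a form of liver and skeletal muscle, were counted as other forms. Aldoa, counted as a muscle form, is also the form of most other tissues. So counted, the heart or muscle form made up most of the level per transcript length at 8 of the 9 steps compared without enolase, in both gates. Of these forms, 3 rose in FITChigh, namely Ldhb, Pgam2 and Pfkfb2. A single member, the row called Pgm1, fell. Of the 37 members, 34 passed the filter on low values (3 or more libraries with values of 1 or above) and were tested with limma-trend over all 12907 such genes, with Benjamini-Hochberg adjustment. The other 3, Aldoc, Eno1 and Eno2, were at or near 0. The 3 called higher are 8.82% of the members tested, and 2.51% of all genes tested were called higher. The 1 called lower is 2.94%, and 13.5% of all genes tested were called lower, so that 16.1% were called in either direction. The remaining 30 did not pass. Slc16a3 entered the test only through its values in FITCdim, so its lower values in FITChigh are partly set by the filter.

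The members' log2 fold changes were narrowly spread around a small positive value. Their median was 0.28 over the 34 tested, against -0.01 over all genes tested, and 30 were above 0. Of the 12907 genes tested, 6381 were above 0. The change differed with the level of the genes. Among the 286 genes with a mean of at least 1000 adjusted read counts, the median log2 fold change was 0.32 and 20.6% were called higher. The 13 members in that range had a median of 0.32 too, and 2 of them, 15.4%, were called higher. Between 100 and 1000 adjusted read counts the median was 0.12 over 3281 genes, of which 5.94% were called higher, and 0.29 over the 14 members there, of which 7.14% were. In 13 members, 38.2% of those tested, all FITChigh libraries lay above all FITCdim libraries, as in 11.4% of all genes tested. In 2 members, 5.88%, they lay below, as in 20.2% of all genes tested. The plot of members among all genes shows them within the cloud of abundant genes.

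**Figure D1:**
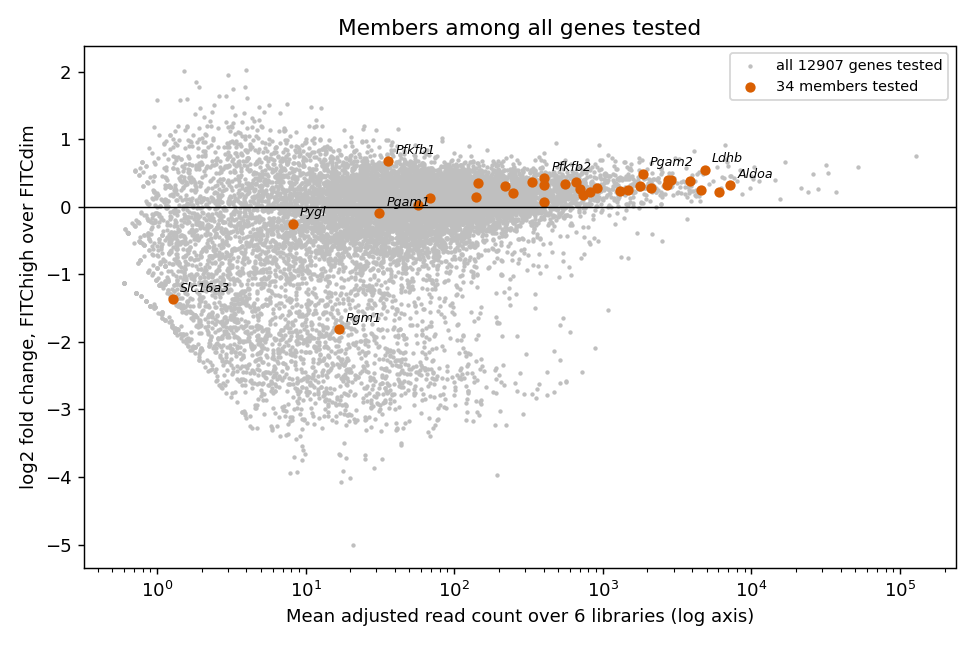
Each point is a gene; the x axis is the mean adjusted read count over 6 libraries on a log axis and the y axis the log2 fold change of FITChigh over FITCdim. Grey points are all 12907 genes tested and orange points the 34 members tested, of which 27 have means of 100 or more at small positive changes, while Pgm1 and Slc16a3 lie low among the weakly expressed genes.

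The number of members called higher depended on the scaling, on the test and on single libraries. It was 3 as the authors scaled the values, 0 with every library brought to a common total and 1 (Pfkfb1) after quantile normalization. It was larger with other tests on the same scale, 5 with limma's robust setting, which added Pfkm and Pkm, and 6 with limma-voom on recovered reads, which added Gpi1 as well. The median of all genes was -0.20 with the common total and 0.13 after quantile normalization. That of the members was 0.07 and 0.12, so that the members' median minus that of all genes was 0.27 and -0.01. Members with a log2 fold change above 0 numbered 25 with the common total and 24 after quantile normalization. Over all genes, the calls split into 324 higher and 1748 lower as deposited, 41 and 2189 with the common total, and 467 and 1213 after quantile normalization. Without FITChigh replicate 1 or FITCdim replicate 1, 0 members were called higher. Without FITChigh replicate 2 or FITCdim replicate 3 it was 1, and without FITCdim replicate 2 it was 2. Pgm1 was called lower under all 15 alternatives run.

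**Figure D2:**
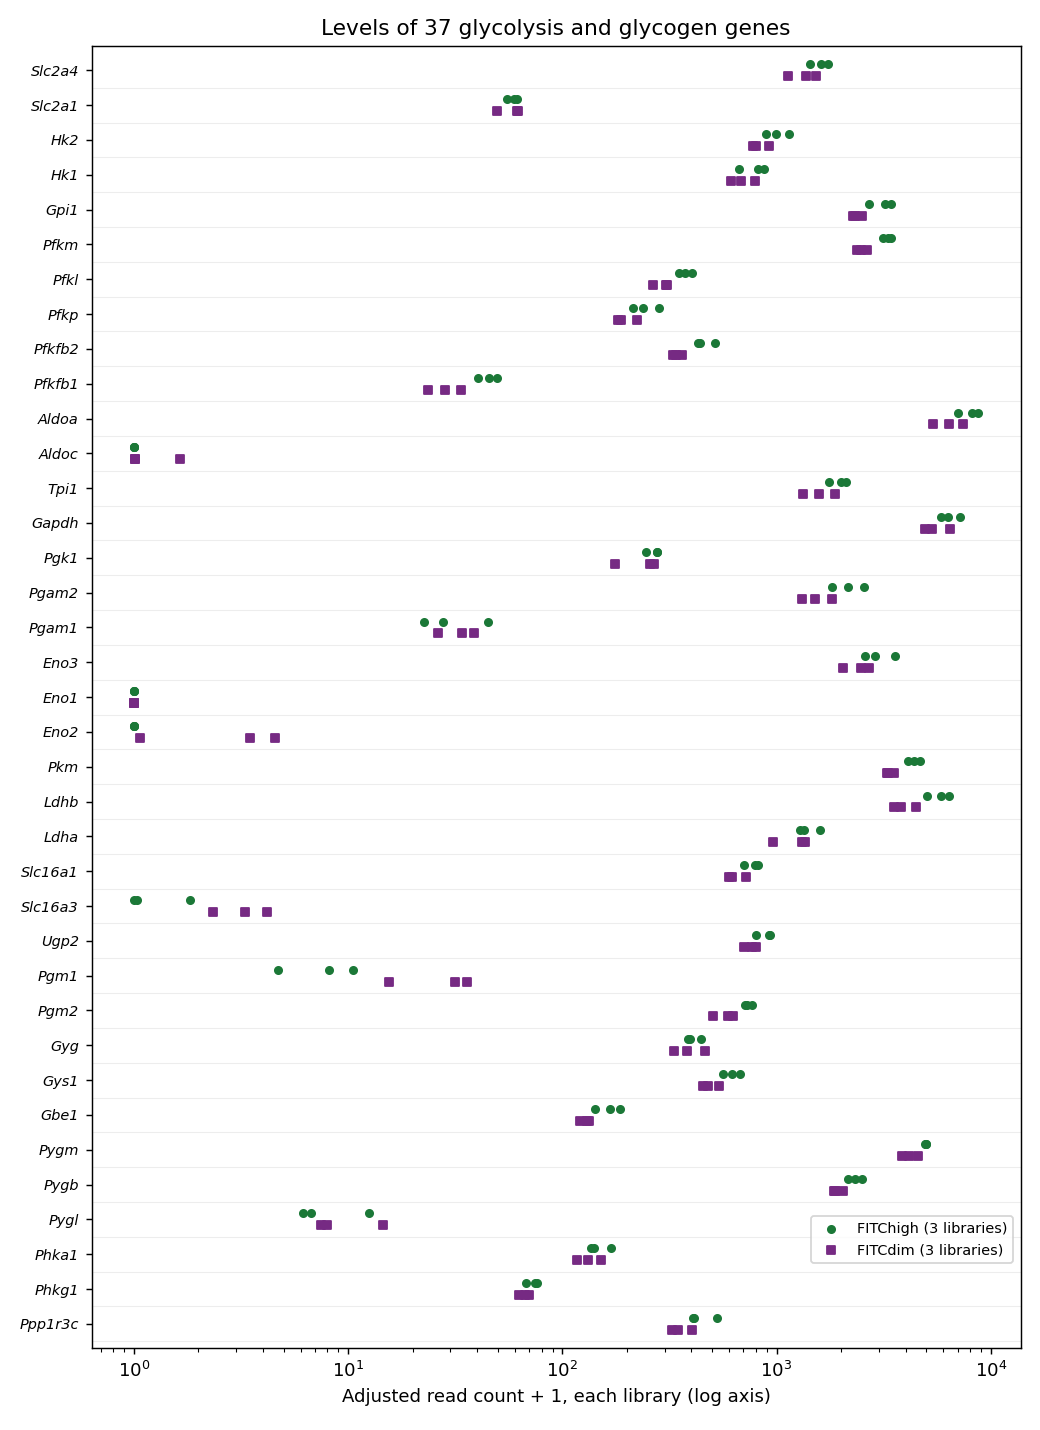
Adjusted read count plus 1 in each library, on a log axis, for the 37 members in the order of the pathway; circles are the 3 FITChigh and squares the 3 FITCdim libraries. The 10 heart and muscle forms lie between 326.9 and 8742, and the low members Aldoc, Eno1, Eno2, Slc16a3, Pgm1 and Pygl lie to the left, with Eno2, Slc16a3 and Pgm1 lower in FITChigh.

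Glucose enters heart muscle through Slc2a4 (GLUT4), the transporter that insulin and contraction bring to the surface, and through Slc2a1 (GLUT1), the basal transporter of most cells. Slc2a4 (chromosome 11, 69942539 to 69948188 in mm10) had 1730, 1618 and 1432 adjusted read counts in the FITChigh libraries, against 1535, 1371 and 1125 in the FITCdim libraries. Slc2a1 had 58.2, 54.3 and 60.6 in FITChigh, against 61, 48.7 and 60.3 in FITCdim. Both overlapped between the gates, and neither passed limma's test (Slc2a4, log2 fold change 0.25, SE 0.14, adjusted p = 0.27; Slc2a1, 0.03, SE 0.20, adjusted p = 0.94). Divided by transcript length, Slc2a4 made up 97.3% ± 0.37 of the pair in FITChigh, against 96.8% ± 0.69 in FITCdim (SD, n = 3 per gate).

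Hexokinase traps glucose as glucose 6-phosphate. Hk2, the insulin-regulated form of muscle and heart, had 993.8, 896.0 and 1145 adjusted read counts in FITChigh, against 798.5, 771.3 and 921.1 in FITCdim. Hk1, the form of most tissues, had 871.8, 670.4 and 814.6 in FITChigh, against 611.6, 684.4 and 788.8 in FITCdim. This was the step at which the heart and the general form were closest. Hk2 held 47.4% ± 2.7 of the pair per length in FITChigh, against 45.6% ± 1.9 in FITCdim (SD, n = 3 per gate) with the longest principal transcript of each gene as its length, but 64.8% and 63.1% with all annotated exons merged. Which of them was the more abundant per length therefore depends on the transcript model. Neither gene passed the test (Hk2, 0.28, adjusted p = 0.19; Hk1, 0.18, adjusted p = 0.47), and the values of both overlapped between the gates.

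Gpi1, which turns glucose 6-phosphate into fructose 6-phosphate, had 3216, 3439 and 2693 adjusted read counts in FITChigh, against 2269, 2514 and 2318 in FITCdim. The gates did not overlap, but the difference did not pass (log2 fold change 0.39, SE 0.14, adjusted p = 0.074). Phosphofructokinase, the main point of control, follows. Its muscle form Pfkm had 3420, 3315 and 3136 in FITChigh, against 2476, 2640 and 2385 in FITCdim, without overlap (0.40, SE 0.13, adjusted p = 0.053, limma). Pfkm passed under 4 of 15 alternatives and lies just outside the threshold. The liver form Pfkl had 403.0, 373.6 and 350.0 in FITChigh, against 304.2, 264.0 and 305.5 in FITCdim, and it did not overlap either. The platelet form Pfkp had 281.8, 213.5 and 236.3 in FITChigh, against 222.4, 181.0 and 186.1 in FITCdim, with overlap. Neither passed (Pfkl, 0.37, adjusted p = 0.076; Pfkp, 0.31, adjusted p = 0.21). Pfkm made up 87.8% ± 0.64 of the 3 forms per length in FITChigh, against 87.3% ± 1.4 in FITCdim (SD, n = 3 per gate).

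The bifunctional enzymes of the PFKFB family make and break fructose 2,6-bisphosphate, the strongest activator of phosphofructokinase. Pfkfb2, the heart form (chromosome 1, 130689182 to 130729253), had 430.5, 440.2 and 514.0 adjusted read counts in FITChigh, against 339.6, 326.9 and 361.4 in FITCdim. All FITChigh libraries were above all FITCdim libraries, and the rise passed (log2 fold change 0.43, SE 0.13, adjusted p = 0.036, limma; higher in 3 of 3 libraries). Pfkfb1, the form of liver and skeletal muscle, had 48.7, 44.6 and 39.5 in FITChigh, against 27.2, 22.6 and 32.8 in FITCdim. It too was without overlap, and its log2 fold change of 0.67 (SE 0.24, adjusted p = 0.073) did not pass. It did pass after quantile normalization (0.90, adjusted p = 0.025). Pfkfb2 made up 80.3% ± 3.1 of the pair per length in FITChigh, against 83.1% ± 1.9 in FITCdim (SD, n = 3 per gate). The log2 ratio of Pfkfb2 over Pfkfb1 was lower in FITChigh by the means, at 3.35 ± 0.28, against 3.60 ± 0.19 in FITCdim, with overlap (exact two-sided permutation test, p = 0.3). In the Pfkfb2 transcript 24.3% of the 75-base stretches also occurred in Gm29427. The call of Pfkfb2 was lost with a common total (0.22, adjusted p = 0.33), after quantile normalization (0.32, adjusted p = 0.12) and without FITChigh replicate 1 (adjusted p = 0.069) or 3 (0.13) or FITCdim replicate 1 (0.11) or 2 (0.12).

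Aldolase splits the phosphorylated sugar. Aldoa, the form of muscle and of most other tissues, was the member with the highest adjusted read count, at 8152, 8742 and 7043 in FITChigh, against 6382, 7402 and 5395 in FITCdim (log2 fold change 0.33, SE 0.17, adjusted p = 0.23). Aldoc, the brain form, had 0 reads among 7064664 in FITChigh, a count that allows up to 3 reads at that depth, and 1 read among 6904127 in FITCdim. Tpi1, which interconverts the 2 trioses, stood at 1952 ± 177.1 in FITChigh, against 1589 ± 271.8 in FITCdim (SD, n = 3 per gate; 0.31, adjusted p = 0.19). Gapdh, the dehydrogenase often used as a reference gene, stood at 6449 ± 701.2 in FITChigh, against 5577 ± 807.8 in FITCdim (SD, n = 3 per gate; 0.21, adjusted p = 0.43). Pgk1, which makes the first ATP of the pathway, stood at 265.9 ± 17.8 in FITChigh, against 233.2 ± 50.5 in FITCdim (SD, n = 3 per gate; 0.21, adjusted p = 0.45). The levels of Gapdh and Pgk1 are uncertain. Of all stretches of 75 bases, the read length, 80.3% in the Gapdh transcript and 67.5% in that of Pgk1 also occurred in annotated transcripts of other genes, among them Gm7336 and Pgk1-rs7, and the sources used here do not say how such reads were counted.

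Phosphoglycerate mutase was almost wholly of the muscle form, which rose. The general form did not pass the test, and the ratio of the 2 forms overlapped between the gates. Pgam2, the muscle form (chromosome 11, 5801640 to 5803733), had 2151, 2571 and 1809 adjusted read counts in FITChigh, against 1313, 1815 and 1513 in FITCdim. Its rise passed narrowly (log2 fold change 0.49, SE 0.16, adjusted p = 0.047, limma), although the lowest FITChigh library lay just under the highest FITCdim library. Pgam1, the form of most tissues (chromosome 19, 41911923 to 41918660), had 44.1, 26.8 and 21.7 in FITChigh, against 37.7, 25.2 and 33.1 in FITCdim, and it did not pass (-0.09, SE 0.29, adjusted p = 0.87). Pgam2 made up 99.3% ± 0.25 of the pair per length in FITChigh, against 99% ± 0.34 in FITCdim (SD, n = 3 per gate). The log2 ratio of Pgam2 over Pgam1 was 6.14 ± 0.50 in FITChigh, against 5.56 ± 0.52 in FITCdim, with overlap. That difference of 0.58 had p = 0.2 by the exact two-sided permutation test, and 0.4 after adjustment over 10 steps. After quantile normalization the difference was 0.03. The level of Pgam1 is uncertain, since 40.6% of the 75-base stretches of Pgam1 also occurred in other genes, chiefly Pgam1-ps2 and 0% of those of Pgam2 did. The call of Pgam2 was lost with a pseudocount of 0.5 (adjusted p = 0.052), with a common total (0.29, adjusted p = 0.23), after quantile normalization (0.19, adjusted p = 0.40) and without FITChigh replicate 1 (adjusted p = 0.13) or 2 (0.18) or FITCdim replicate 1 (0.19) or 3 (0.069).

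The promoters of both mutases are shown because the 2 genes serve 1 step at very different levels. They are the 300 bases from 250 before to 50 after the start in RefSeq's table for GRCm38.p6, printed along the gene's strand, with the letters of every motif found in capitals:
Pgam2, chr11:5803747-5804046, minus strand: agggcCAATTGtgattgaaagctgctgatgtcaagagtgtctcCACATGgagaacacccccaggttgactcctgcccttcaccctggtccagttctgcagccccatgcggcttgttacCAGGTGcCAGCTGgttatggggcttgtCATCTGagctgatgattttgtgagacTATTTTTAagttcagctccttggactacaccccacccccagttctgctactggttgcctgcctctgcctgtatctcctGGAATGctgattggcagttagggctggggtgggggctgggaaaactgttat
Pgam1, chr19:41911621-41911920, plus strand: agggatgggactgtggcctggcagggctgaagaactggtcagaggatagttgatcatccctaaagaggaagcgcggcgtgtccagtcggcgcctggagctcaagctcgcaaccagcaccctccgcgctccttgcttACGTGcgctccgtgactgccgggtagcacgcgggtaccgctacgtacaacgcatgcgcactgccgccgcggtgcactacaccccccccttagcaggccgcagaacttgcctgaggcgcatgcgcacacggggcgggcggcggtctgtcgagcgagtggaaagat
The motifs searched on both strands were the E-box CANNTG, found in 72.3% of the 32851 promoter windows of the table, the core of the hypoxia element ACGTG (19.6%), the core of the ERR element AAGGTCA (4.72%), the MCAT element CATTCC (14.7%), the MEF2-type letters TATTTATA (1.7%) and TATTTTTA (2.72%), and the TATA box TATAAA (13.6%). The window of Pgam2 held 5 E-boxes, 1 TATTTTTA that begins 79 bases before the start, and 1 MCAT match. That of Pgam1 held 1 ACGTG and no other of these motifs. The windows also differed in base composition, with 53.3% G or C in Pgam2 and 65% in Pgam1.

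At enolase the muscle form was abundant, and the level of the general form is not known. Eno3, the muscle form, had 2875, 3579 and 2587 adjusted read counts in FITChigh, against 2476, 2707 and 2040 in FITCdim (log2 fold change 0.32, SE 0.16, adjusted p = 0.20). Eno2, the neuronal form, had 0 reads in FITChigh, against 4, 3 and 0 reads in FITCdim. Taken against a floor of 3 reads over the group, Eno2 was at least 2.39-fold lower in FITChigh, a comparison of 7 reads with none that was not tested. Eno1, the form of most tissues, is listed at 0 in all 6 libraries. That is not read as absence, since 65.4% of its 75-base stretches also occurred in other genes, chiefly Eno1b, and the sources used here do not say how such reads were counted. Pkm, pyruvate kinase of muscle and of most tissues, whose splice forms a gene-level value cannot separate, had 4691, 4093 and 4397 in FITChigh, against 3309, 3539 and 3279 in FITCdim. The gates did not overlap, and the difference did not pass (0.38, SE 0.14, adjusted p = 0.078). In the Pkm transcript 19.6% of the 75-base stretches also occurred in other genes, chiefly Gm6560. Such shared stretches also made up 14.8% in Gpi1 (chiefly Gm1840), 16.6% in Pfkp (Pitrm1) and 24.2% in Phkg1 (chiefly Sumf2).

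At lactate dehydrogenase the heart subunit rose, and its ratio to the muscle subunit did not overlap between the gates. The subunits of this enzyme assemble as tetramers. The heart subunit Ldhb favours turning lactate into pyruvate, and the muscle subunit Ldha favours the reverse. Ldhb (chromosome 6, 142490249 to 142507957) had 5878, 6397 and 5029 adjusted read counts in FITChigh, against 3816, 4467 and 3536 in FITCdim. Every FITChigh library was above every FITCdim library, and the rise passed (log2 fold change 0.55, 1.46-fold, SE 0.16, adjusted p = 0.023, limma). Ldha (chromosome 7, 46841475 to 46855627) had 1342, 1600 and 1285 in FITChigh, against 1308, 1358 and 962.1 in FITCdim, with overlap, and it did not pass (0.23, SE 0.15, adjusted p = 0.36). Within each library the log2 ratio of Ldhb over Ldha was 2.13, 2.00 and 1.97 in FITChigh, against 1.54, 1.72 and 1.88 in FITCdim. The ratios did not overlap and differed by 0.32 (exact two-sided permutation test, p = 0.1, the smallest possible, and 0.33 after adjustment over 10 steps). The sum of both forms held 84.7% ± 0.77 Ldhb per length in FITChigh, against 81.6% ± 1.7 in FITCdim (SD, n = 3 per gate). After quantile normalization the ratios differed by 0.26, again without overlap, and the difference lay between 0.24 and 0.40 when single libraries were left out.

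The call of Ldhb depended on the scaling. Its log2 fold change was 0.35 (adjusted p = 0.13) with a common total and 0.22 (adjusted p = 0.27) after quantile normalization, and the call was also lost without FITChigh replicate 1 (adjusted p = 0.093) or 2 (0.084) or FITCdim replicate 1 (0.057) or 3 (0.062). In the Ldhb transcript 16.7% of the 75-base stretches also occurred in Gm5514. The promoters of both subunits, from the same table and with the same marking, are shown for this step as well:
Ldhb, chr6:142507908-142508207, minus strand: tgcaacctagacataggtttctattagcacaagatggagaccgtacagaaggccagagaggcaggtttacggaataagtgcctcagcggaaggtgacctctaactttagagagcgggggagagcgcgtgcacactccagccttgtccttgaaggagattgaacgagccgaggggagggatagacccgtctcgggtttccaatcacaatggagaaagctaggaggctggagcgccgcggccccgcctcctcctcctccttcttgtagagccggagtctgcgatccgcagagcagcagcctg
Ldha, chr7:46845554-46845853, plus strand: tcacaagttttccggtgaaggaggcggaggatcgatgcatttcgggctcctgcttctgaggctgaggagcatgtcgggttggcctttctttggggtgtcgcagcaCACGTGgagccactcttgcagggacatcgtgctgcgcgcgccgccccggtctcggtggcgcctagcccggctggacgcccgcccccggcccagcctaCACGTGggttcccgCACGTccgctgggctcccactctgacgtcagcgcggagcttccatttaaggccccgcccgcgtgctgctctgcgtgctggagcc
The window of Ldhb held none of the motifs searched. That of Ldha held 2 E-boxes with the letters CACGTG, each of which reads ACGTG on both strands, and 1 further ACGTG on the minus strand, so that the hypoxia element was matched 5 times at 3 places. A second RefSeq start of Ldha held 2 E-boxes and no ACGTG.

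Lactate and pyruvate cross the membrane on monocarboxylate transporters. Slc16a1 (MCT1), the main carrier for lactate uptake in heart, had 794.3, 817.0 and 700.9 adjusted read counts in FITChigh, against 715.5, 600.5 and 618.3 in FITCdim (log2 fold change 0.26, SE 0.13, adjusted p = 0.21). Slc16a3 (MCT4), the export carrier of strongly glycolytic cells, had 0, 0 and 1 reads in FITChigh, against 5, 1 and 2 reads in FITCdim. The ratio of read rates was 0.122 (exact 95% interval for counting error 0.0028 to 0.911), and the gene did not pass limma's test (adjusted p = 0.12). At 9 reads in all, Slc16a3 was close to the limit of what these libraries could detect.

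**Figure D3:**
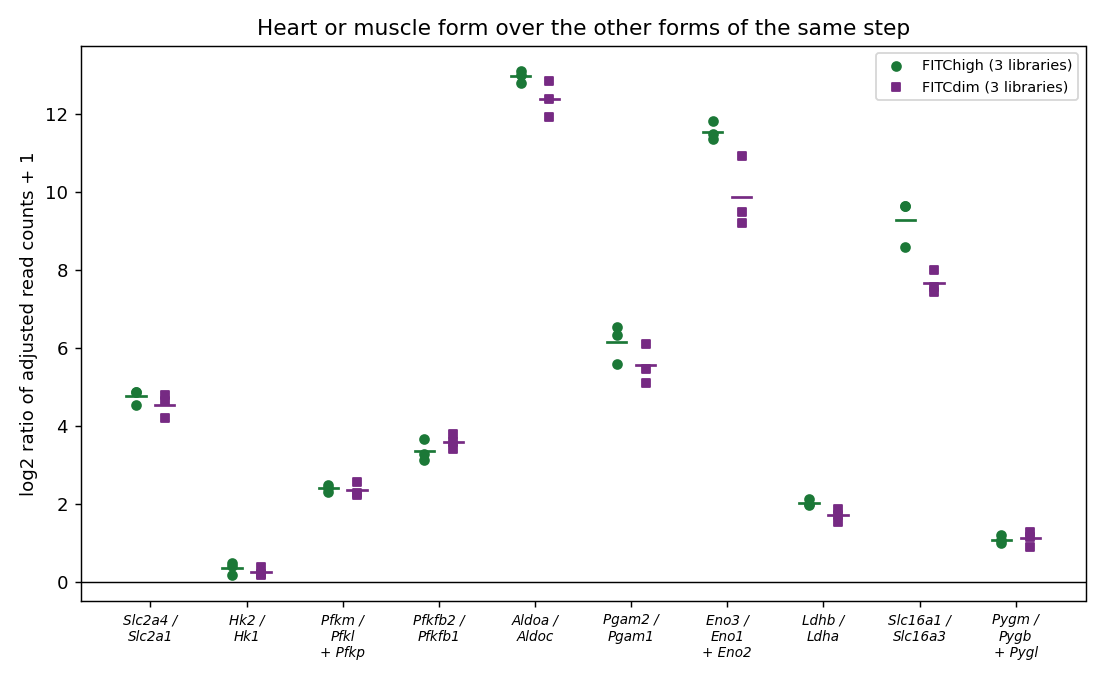
For each of 10 steps, the log2 ratio of the adjusted read counts plus 1 of the heart or muscle form over the summed other forms; circles are FITChigh and squares FITCdim libraries, and bars are group means. The ratio was above 0 at every step, with Eno1 of the enolase step listed at 0, and FITChigh lay wholly above FITCdim for Eno3, Ldhb and Slc16a1.

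Taken over the 10 steps, the ratio of heart or muscle form to other forms was higher on average in FITChigh at 8, but the gates overlapped at 7. It was lower for the PFKFB enzymes and, slightly, for glycogen phosphorylase. After quantile normalization, which gave a value for 8 steps, it was higher in FITChigh at 4 of them. Besides lactate dehydrogenase, FITChigh lay wholly above FITCdim for enolase, with mean log2 ratios of 11.54 ± 0.24 in FITChigh and 9.86 ± 0.91 in FITCdim, and for monocarboxylate transport, with 9.28 ± 0.61 in FITChigh and 7.66 ± 0.30 in FITCdim (SD, n = 3 per gate). Each had an exact two-sided permutation p = 0.1 and an adjusted value of 0.33. These 2 differences, 1.68 and 1.62, turn on a handful of reads of Eno2 and Slc16a3 and on the pseudocount. The enolase ratio also lacks Eno1. Where Eno2 had no read, in FITChigh and in FITCdim replicate 3, the enolase ratio follows the level of Eno3 alone. The aldolase ratio likewise follows Aldoa, since Aldoc had 0 reads in FITChigh and 1 in FITCdim. With a pseudocount of 5 the differences for enolase and monocarboxylate transport were 0.78 and 0.71, and with 0.5 they were 2.24 and 2.17. After quantile normalization the difference for monocarboxylate transport was 0.57, with overlap (exact permutation test, p = 0.4). The smallest differences were those of phosphofructokinase (0.05, p = 0.7) and glycogen phosphorylase (-0.02, p = 1), both by the exact permutation test, and their sign changed when single libraries were left out.

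Glycogen synthesis starts from Ugp2, which makes UDP-glucose, and Gyg, glycogenin, the protein primer. In adjusted read counts, Ugp2 was at 881.6 ± 71.9 in FITChigh and at 756.8 ± 50.6 in FITCdim (SD, n = 3 per gate; log2 fold change 0.22, adjusted p = 0.29, limma). Gyg stood at 407.9 ± 32 in FITChigh, against 391.3 ± 66.4 in FITCdim (SD, n = 3 per gate; 0.07, 95% interval -0.24 to 0.38, adjusted p = 0.80). Gys1, the muscle glycogen synthase, had 677.0, 562.2 and 616.1 in FITChigh, against 477.2, 450.8 and 536.9 in FITCdim, without overlap (0.34, adjusted p = 0.097). Gbe1, the branching enzyme, stood at 164.0 ± 21.6 in FITChigh, against 127.5 ± 6.33 in FITCdim (SD, n = 3 per gate; 0.35, adjusted p = 0.15). Ppp1r3c, which brings protein phosphatase 1 to glycogen, stood at 446.7 ± 69.2 in FITChigh, against 356.1 ± 39.9 in FITCdim (SD, n = 3 per gate; 0.32, adjusted p = 0.16). None of these 5 passed the test.

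Glycogen breakdown is carried out by phosphorylase. Pygm, the muscle form, had 4954, 4998 and 4971 adjusted read counts in FITChigh, against 3851, 4590 and 4151 in FITCdim. The FITChigh libraries agreed closely and all lay above FITCdim, yet the difference did not pass (log2 fold change 0.25, SE 0.14, adjusted p = 0.28, limma). Pygb, the brain form, which heart also expresses, had 2495, 2156 and 2327 in FITChigh, against 2050, 1874 and 1847 in FITCdim (0.27, adjusted p = 0.19). Pygl, the liver form, had 5.69, 5.14 and 11.5 in FITChigh, against 13.5, 6.46 and 6.98 in FITCdim (-0.25, SE 0.43, adjusted p = 0.76). Pygm made up 74.3% ± 1.5 of the 3 forms per length in FITChigh, against 74.6% ± 2.6 in FITCdim (SD, n = 3 per gate). The mix of phosphorylases thus differed by less than the spread between libraries. The subunits of phosphorylase kinase, which switches phosphorylase on, did not pass either. Phka1, the regulatory subunit of muscle, stood at 147.0 ± 17.6 in FITChigh, against 132.9 ± 17.1 in FITCdim (SD, n = 3 per gate; 0.15, adjusted p = 0.61). Phkg1, the catalytic subunit of muscle, stood at 71.9 ± 4.65 in FITChigh, against 65.7 ± 3.74 in FITCdim (SD, n = 3 per gate; 0.13, adjusted p = 0.70).

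Phosphoglucomutase links glycogen to glycolysis, and the only member that fell is one of its genes. The row called Pgm1 had 9.6, 3.72 and 7.16 adjusted read counts in FITChigh, against 35, 14.5 and 30.7 in FITCdim. The gates did not overlap, and the fall passed (log2 fold change -1.81, SE 0.41, adjusted p = 0.0058, limma; lower in 3 of 3 libraries). It rests on 21 reads in FITChigh and 94 in FITCdim, a ratio of read rates of 0.218 (exact 95% interval for counting error 0.13 to 0.353). The row called Pgm2 had 770.5, 730.3 and 712.3 in FITChigh, against 591.7, 624.4 and 506.7 in FITCdim, also without overlap, and did not pass (0.37, SE 0.13, adjusted p = 0.068). Which gene either symbol stands for is not settled. RefSeq lists each of these symbols as a synonym of the other, 1711 symbols of the table are known there only as older names, and the table gives no identifiers, so no position or single role is given here for either row. In the transcript that GENCODE names Pgm1, 14.1% of the 75-base stretches also occurred in Itgb3bp. The fall of Pgm1 went with that of the endothelial, fibroblast and leukocyte markers, whose median log2 fold changes were -2.71 over 10, -2.66 over 7 and -2.40 over 6 tested markers, and with the mural (-2.44 over 7) and atrial ones (-3.21 over 4). Their part in the result was not tested.

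**Figure D4:**
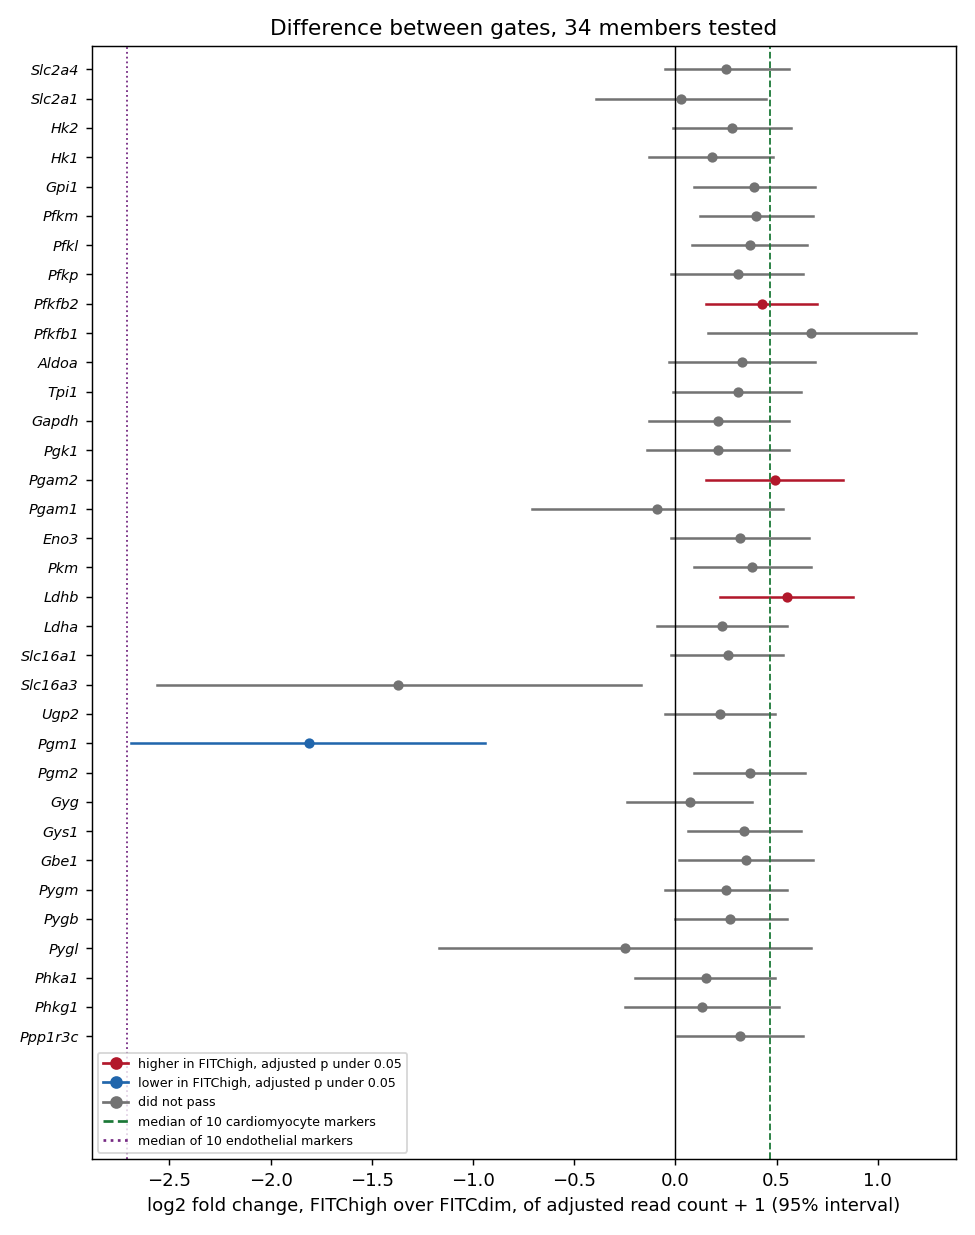
Log2 fold change of FITChigh over FITCdim with its 95% interval from limma for the 34 members tested, in the order of the pathway; red members were called higher, blue lower, and grey did not pass. Most members lie between 0 and the dashed line, the median of 10 cardiomyocyte markers at 0.47, while Pgm1 and Slc16a3 lie toward the dotted line, the median of 10 endothelial markers at -2.71.

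The rise of Ldhb, Pgam2 and Pfkfb2 went with higher cardiomyocyte markers. The summed level of these 10 markers was 1.47-fold higher in FITChigh by the group means. Myh6 weighed most in that sum, with a mean of 159480 in FITChigh against 96706 in FITCdim. In 6 of the 10 markers the gates did not overlap, and 1 was called higher. The markers' log2 fold changes ran from 0.12 (Pln) to 0.75 (Myh6), with a median of 0.47. The changes of Ldhb at 0.55 and Pgam2 at 0.49 were of that size, and the median of the 10 heart or muscle forms was 0.32. That of the 10 other forms tested was 0.20, with 7 above 0 and 3 below. As a share of all adjusted read counts, the 37 members took 2.33% ± 0.1 in FITChigh, against 2.14% ± 0.19 in FITCdim (SD, n = 3 per gate; exact two-sided permutation test, p = 0.2). The part of cell composition in these differences was not tested.

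Among 48 other genes of the pathway, 47 were in the table and 38 were tested. Of these 2 rose, 1 fell and 35 did not pass, with a median log2 fold change of 0.18. Over all genes tested, 2.51% were called higher and 13.5% lower, with a median of -0.01. Mpc1, a subunit of the carrier that takes pyruvate into mitochondria, had 583.4, 572.6 and 459.5 adjusted read counts in FITChigh, against 359.2, 422.6 and 362.8 in FITCdim, without overlap (0.49, SE 0.14, adjusted p = 0.023, limma). The call of Mpc1 was lost with a common total (adjusted p = 0.18), after quantile normalization (0.073) and without FITChigh replicate 1 (0.12) or 2 (0.071) or FITCdim replicate 1 (0.094) or 3 (0.057). Pfkfb3, the inducible relative of Pfkfb2 that is abundant in endothelial and proliferating cells, had 9.54, 9.31 and 9.54 in FITChigh, against 46.1, 40.8 and 34.5 in FITCdim. It fell (-1.98, SE 0.28, adjusted p = 0.00012) and was called under all 15 alternatives. It moved with the endothelial, fibroblast, mural, leukocyte and atrial markers, whose median log2 fold changes were -2.71, -2.66, -2.44, -2.40 and -3.21. Their part in the result was not tested. The most abundant by adjusted read count was Bsg, basigin, which escorts monocarboxylate transporters to the membrane, at 4301 ± 585.2 in FITChigh, against 3332 ± 512.1 in FITCdim (SD, n = 3 per gate; 0.37, adjusted p = 0.14).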

How the data were processed

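Libraries were made with a stranded mRNA kit and read as pairs of 75 bp, per the labels' protocols. STAR 2.5, edgeR and build mm10 are named, per the submitters' processing notes. Neither the counting program nor the annotation nor the use of strand is given in the sources used here. The authors deposited a signal value per gene and library, namely read counts adjusted toward one library size. The sums of the values still differed between the gates. Of the table, 6 garbled lines were left out. Whole reads were recovered by undoing that adjustment with negative binomial quantiles (common dispersion 0.0203, 100% whole within 0.1) and used for depth, floors, counting intervals and limma-voom; intervals and floors cover counting error only.

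Log2(value + 1) was tested with limma 3.58.1 in R 4.3.3 (trend, no block, two-sided, threshold 0.05), for FITChigh minus FITCdim; such fold changes understate those of low genes. Adjusted p-values reflect only the spread between libraries. Replicates differed beyond sampling noise, with a chi-square over its degrees of freedom of 3.63 to 6.09. Lengths are of the longest principal transcript in GENCODE M21. Members and lists were chosen with earlier results of these data known. All members are reported, and other pathway genes past the test or with the highest mean, except 1 that is not reported here. Replicates are numbered in accession order. Alternatives changed the pseudocount, filter, scaling, test, block and libraries.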

Additional observations from a re-analysis of the deposited data

How the results depend on the processing

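Counts and most genes had 15 alternatives each, the log2 ratios 10 or 11 and the shares per length 1. Of 798 values in all, 681 kept their direction and their side of the threshold or moved little. With a common total, 41 genes, 0 members and 0 other pathway genes were higher and the members' median was 0.07. Quantile normalization gave 1 member and a median of 0.12, robust empirical Bayes 5 members and limma-voom 6. With the title tag as a replicate block, 1064 genes, 21 members and 8 other pathway genes were called higher. The tags are not shown to pair the samples, since the deviations of the libraries sharing a tag correlated at 0.0711, 0.125 and 0.175, although each library correlated best with its own tag. Leaving out single libraries gave 67 to 341 genes higher, 1152 to 1672 lower, 0 to 3 members higher, and 0 to 2 other pathway genes higher and 1 to 2 lower. The cause of these shifts was not tested, except that fewer samples enter.

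The sign turned with a common total for Slc2a1 (-0.17), Hk1 (-0.03), Gyg (-0.13), Phka1 (-0.06) and Phkg1 (-0.07). It turned after quantile normalization for Slc2a4 (-0.01), Hk1 (-0.01), Aldoa (-0.15), Gapdh (-0.26), Pgam1 (0.15), Ldha (-0.04), Gyg (-0.04), Pygm (-0.11), Pygb (-0.02) and Pygl (0.35), and for the differences in log2 ratio at glucose uptake (-0.18) and phosphofructokinase (-0.16). That setting gave no ratio for aldolase and enolase, since Aldoc, Eno1 and Eno2 had not passed the filter. A common total cannot move a ratio within a library except through the pseudocount. Without single libraries the log2 fold change ran from -0.07 to 0.09 for Slc2a1, -0.37 to 0.12 for Pgam1, -0.05 to 0.20 for Gyg and -0.57 to 0.05 for Pygl. The difference in log2 ratio ran from -0.01 to 0.16 for phosphofructokinase and -0.13 to 0.06 for glycogen phosphorylase. None of these was called in the first place. The tests with count models that had been planned on whole reads were not run. The exact permutation test used for the ratios cannot pass 0.05 with 3 against 3 libraries, and depth limits Aldoc, Eno2 and Slc16a3 to 9 reads or fewer in all.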
